A study of Homo sapiens with 4 samples.

Results

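The genes described here are 7 genes of the pathway that senses double-stranded RNA and other misplaced nucleic acids: EIF2AK2, TLR3, CGAS, DHX58, MAVS, TBK1 and IRF3. They were taken from a deposited table of 60544 genes by gene name and not by their values, though earlier results of these data were known. The table holds read counts from poly(A) RNA in 4 libraries of PC3, an established line from a human prostate cancer. There were 2 libraries of the control arm, labelled shNC, and 2 of the METTL3 knockdown arm, labelled sh812. Both arms were grown in the same medium with serum, and no virus, synthetic RNA or interferon is named in the labels. The labels give 1 short hairpin for the knockdown, and do not say whether the cells were a clone or a pool. They also do not say whether replicates came from separate cultures, so p-values measure the spread between these libraries, which may be technical.

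METTL3 is the catalytic subunit of the enzyme that places N6-methyladenosine (m6A) on messenger RNA. The mark can weaken RNA duplexes, and its loss has been linked in other cells to the recognition of the cell's own RNA as foreign. Recognition runs through a few arms. RIG-I and MDA5 bind RNA duplexes in the cytosol and act through MAVS, an adaptor on mitochondria, and DHX58 (LGP2) is a related helicase without a signalling domain. TLR3 binds duplexes in endosomes and acts through the adaptor TICAM1 (TRIF). CGAS binds DNA and acts through STING1. These arms meet at the kinase TBK1, which phosphorylates the transcription factor IRF3, and IRF3 then switches on type I interferon. EIF2AK2 (PKR) works apart from this relay and stops translation by phosphorylating eIF2 alpha.

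EIF2AK2 and TLR3 are themselves known as interferon-inducible genes, so promoters are shown to compare members with and without the interferon-stimulated response element (ISRE). The promoter window runs from 250 bases before to 50 bases after the RefSeq start (GRCh38.p14), and 4 of the 7 genes had an entry. The sequences are 5′ to 3′ on the gene's strand, and capitals mark a match to the ISRE core (GAAA, any 2 bases, GAAA) on either strand. EIF2AK2 (minus strand, chr2:37156931-37157230), TLR3 (plus strand, chr4:186068906-186069205), MAVS (plus strand, chr20:3846584-3846883) and TBK1 (plus strand, chr12:64451870-64452169) read as follows.
EIF2AK2: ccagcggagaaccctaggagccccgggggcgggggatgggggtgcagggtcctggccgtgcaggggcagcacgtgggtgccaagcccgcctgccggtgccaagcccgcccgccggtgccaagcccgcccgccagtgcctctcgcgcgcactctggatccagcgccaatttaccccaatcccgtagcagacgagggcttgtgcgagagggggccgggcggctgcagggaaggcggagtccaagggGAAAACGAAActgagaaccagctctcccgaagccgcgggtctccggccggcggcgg
TLR3: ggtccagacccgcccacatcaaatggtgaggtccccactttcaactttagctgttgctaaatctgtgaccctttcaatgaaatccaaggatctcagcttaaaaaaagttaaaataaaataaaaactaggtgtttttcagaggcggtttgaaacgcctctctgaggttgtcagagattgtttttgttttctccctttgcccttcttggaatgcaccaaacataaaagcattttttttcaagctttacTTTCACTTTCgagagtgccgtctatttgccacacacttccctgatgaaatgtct
MAVS: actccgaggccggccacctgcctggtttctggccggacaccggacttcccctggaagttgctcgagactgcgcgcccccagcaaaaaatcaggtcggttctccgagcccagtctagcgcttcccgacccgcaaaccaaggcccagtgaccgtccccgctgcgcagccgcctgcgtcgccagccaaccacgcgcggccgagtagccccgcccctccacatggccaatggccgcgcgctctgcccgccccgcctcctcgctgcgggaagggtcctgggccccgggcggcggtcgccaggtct
TBK1: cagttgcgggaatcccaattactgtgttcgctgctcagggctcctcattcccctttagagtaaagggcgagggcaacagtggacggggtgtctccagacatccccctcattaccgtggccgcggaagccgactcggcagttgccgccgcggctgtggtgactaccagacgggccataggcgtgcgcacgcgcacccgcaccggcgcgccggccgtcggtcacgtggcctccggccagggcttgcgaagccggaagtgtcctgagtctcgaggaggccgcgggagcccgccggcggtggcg
The match in EIF2AK2 begins 6 bases before the start and reads in the direction of the gene. The match in TLR3 begins 4 bases before the start and lies on the other strand, so that it is printed as its reverse complement. MAVS and TBK1 held no match in this window. Of 35116 promoters of this length, 1255 (3.57%) held the core on either strand. A match is a match of letters and no measure of binding.

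Depth was similar across the libraries, with total counts from 31450648 to 37041330. METTL3 was at 44.3 and 43.6 CPM (counts scaled to library size) in shNC and at 7.66 and 8.75 CPM in sh812, 18.7% of the control level. The PC3 markers KRT8, KRT18, EPCAM, CD44 and VIM were all present, with a summed level of 1408 to 1545 CPM in shNC and 1431 to 1473 CPM in sh812. Of these 5, EPCAM and KRT18 rose (log2 fold changes 0.45 and 0.30, adjusted p = 0.000128 and 0.00793 in edgeR). CD44 and VIM had log2 fold changes of -0.14 and -0.18 and were not called (adjusted p = 0.11 and 0.055 in edgeR). Of the immune markers, PTPRC was at a mean of 0.675 CPM in shNC and 0.506 CPM in sh812, and CD3E was at 0 counts in every library. Stromal and endothelial markers (PECAM1, VWF, COL1A1, DCN, PDGFRB) summed to 62.7 to 64.4 CPM and 63.2 to 74.9 CPM, nearly all of it PECAM1 and COL1A1. PECAM1 rose (log2 fold change 0.59, adjusted p = 0.000222 in edgeR). Of the luminal prostate markers, KLK3 and KLK2 were at 0 in every library, and TMPRSS2 fell, with a log2 fold change of -0.74 (adjusted p = 0.00546 in edgeR). The part of these markers in the results below was not tested. In bulk RNA, fewer cells that express a gene and less RNA per cell cannot be told apart.

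IRF3 was called different between the arms, by 1.20-fold, and MAVS just missed the threshold in the other direction. EIF2AK2, CGAS and TBK1 had values that overlapped between the arms, TLR3 was measured with little precision and DHX58 was at the floor. Of the 7 genes, 6 passed the low-count filter and were tested, and 1 of them, IRF3, passed edgeR's quasi-likelihood test (Benjamini-Hochberg adjusted p under 0.05 over 16802 genes). Across all genes tested, 1822 (10.8%) were called at that threshold, 912 higher (5.43%) and 910 lower (5.42%) in sh812, so 1 of 6 is near the background. With library size alone as the scaling, the split over all genes was 561 higher and 1328 lower. The groups did not overlap for IRF3, MAVS and TLR3, an arrangement that 53.6% of all tested genes showed. On the log2 scale the median change was -0.020 over the 6 members and -0.0056 over all tested genes.

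**Figure D1:**
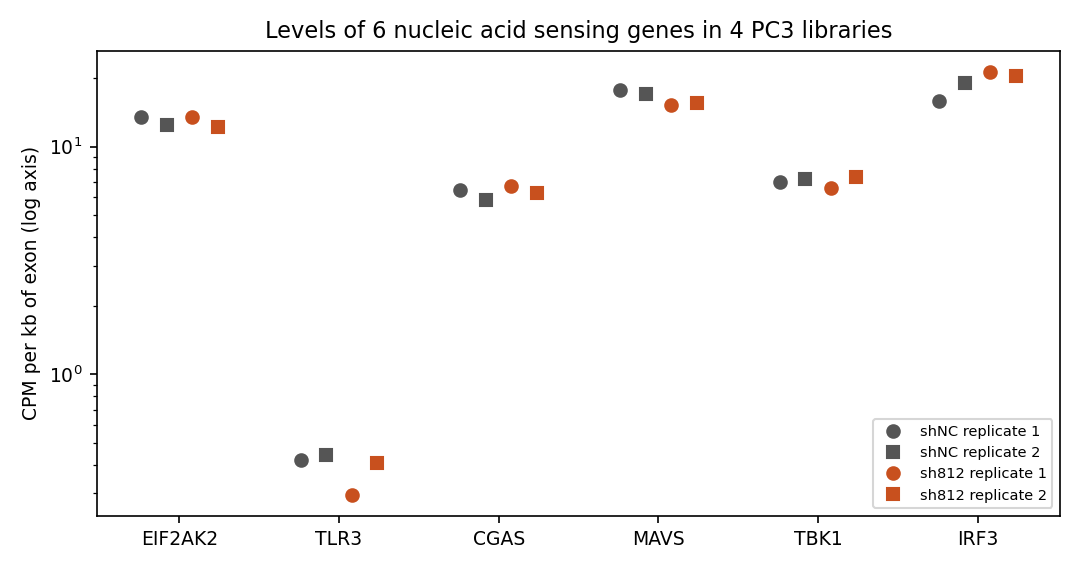
Level of each of the 6 tested genes in CPM per kilobase of exon (log axis) in the 4 libraries; grey points are shNC, orange points sh812, circles replicate 1 and squares replicate 2. EIF2AK2, CGAS and TBK1 overlap between the groups, and both sh812 points of IRF3 lie above both shNC points.

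Levels are compared between genes per kilobase of exon, over the exons of all transcripts of a gene in GENCODE 29. This length is 3794 bases for IRF3, whose longest coding transcript has 1741 bases. For MAVS it is 11771 bases, against a transcript of 11714. The standing of IRF3 against MAVS thus depends on which length is used. In shNC, IRF3 stood at 17.5 ± 2.30 and MAVS at 17.4 ± 0.465 CPM per kb (SD, n = 2). At these exon lengths they do not differ beyond their spread. EIF2AK2 followed at 13.0 ± 0.775, then TBK1 at 7.10 ± 0.193 and CGAS at 6.15 ± 0.426 CPM per kb (SD, n = 2). TLR3 was far lower, at 0.431 ± 0.0159 CPM per kb (SD, n = 2), and DHX58 was at the limit of detection. In sh812 the order was the same, but IRF3 and MAVS were further apart, at 20.9 ± 0.610 and 15.4 ± 0.182 CPM per kb (SD, n = 2). TBK1 and CGAS were within their spread of each other in sh812, at 6.98 ± 0.542 and 6.49 ± 0.324 CPM per kb (SD, n = 2). At these exon lengths the ratio of the IRF3 level to the MAVS level was 0.893 and 1.12 in shNC, against 1.40 and 1.32 in sh812.

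**Figure D2:**
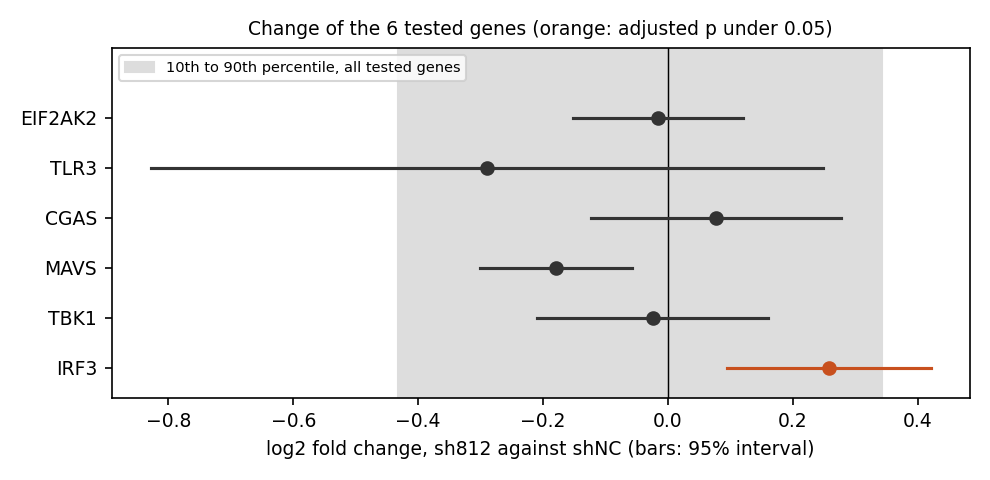
Log2 fold change of sh812 against shNC for the 6 tested genes, with bars for the 95% interval of the fit and a grey band from the 10th to the 90th percentile of all tested genes (-0.43 to 0.34). All 6 points lie inside the band; IRF3 (orange) at 0.26 is the only one with an adjusted p under 0.05, and the interval of TLR3 is the widest.

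Among the sensors, EIF2AK2 is the duplex-activated kinase and the most abundant. Its gene (ENSG00000055332) lies on chromosome 2 from 37099210 to 37157065, minus strand, in GENCODE 29. It was at 145 and 134 CPM in shNC and at 144 and 132 CPM in sh812. The groups overlapped almost fully, with replicate 1 of each arm above replicate 2. The fold of sh812 over shNC was 0.989, with a 95% interval from 0.900 to 1.09 (adjusted p = 0.92 in edgeR). The sign of its log2 fold change, -0.015, turned with the setting, and was 0.082 with the length trend removed and 0.047 without shNC replicate 1.

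TLR3, the endosomal sensor, lies on chromosome 4 from 186069152 to 186088069 (ENSG00000164342, plus strand). It had 107 and 94 counts in shNC and 70 and 98 in sh812, or 2.82 and 2.97 CPM against 1.99 and 2.74 CPM. Both sh812 libraries were below both shNC libraries, sh812 replicate 2 by a small margin. The fold was 0.818 with a 95% interval from 0.563 to 1.19 (adjusted p = 0.55 in edgeR), the widest of the members. The interval holds both a fall and a rise, so the direction was not resolved at this depth. The log2 fold change of -0.29 moved to -0.079 when sh812 replicate 1 was left out, and to -0.54 when sh812 replicate 2 was.

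CGAS, the DNA sensor, lies on chromosome 6 from 73413515 to 73452276 (ENSG00000164430, minus strand). It was at 26.8 and 24.3 CPM in shNC and at 27.9 and 26.0 CPM in sh812. The lower sh812 library lay between the shNC libraries. The fold was 1.05, with a 95% interval from 0.918 to 1.21 (adjusted p = 0.69 in edgeR).

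DHX58, the helicase that tunes RIG-I and MDA5, lies on chromosome 17 from 42101404 to 42112733 (ENSG00000108771, minus strand). It had 3 and 0 counts in shNC and 0 and 2 counts in sh812. No library was above a floor of 3 counts, which corresponds to 0.0791 to 0.0949 CPM in these libraries. DHX58 did not pass the filter, and no fold or interval is given.

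In the relay, MAVS carries the signal of the cytosolic RNA helicases. It lies on chromosome 20 from 3846799 to 3876123 (ENSG00000088888, plus strand). MAVS was at 209 and 201 CPM in shNC and at 179 and 182 CPM in sh812. Both sh812 libraries were below both shNC libraries, and the gap between the groups was wider than the spread within either. The fold was 0.883, with a 95% interval from 0.812 to 0.961, and the adjusted p of 0.052 in edgeR missed the threshold. With DESeq2 and limma-voom it was 0.048 and 0.042. Other edgeR settings below the threshold were library size alone (0.015), no low-count filter (0.046) and a mean CPM of at least 1 (0.032). RLE factors (0.062), upper quartile factors (0.052) and the replicate block (0.055) stayed above it. With 1 library left out, the log2 fold change of MAVS ran from -0.20 to -0.15. With the length trend removed the log2 fold change moved from -0.18 to -0.082 (adjusted p = 0.39).

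TBK1 is the kinase on which the arms converge. It lies on chromosome 12 from 64451880 to 64502108 (ENSG00000183735, plus strand). TBK1 was at 33.2 and 34.5 CPM in shNC and at 31.4 and 35.1 CPM in sh812. The sh812 values lay on either side of the shNC values. The fold was 0.984, with a 95% interval from 0.865 to 1.12 (adjusted p = 0.91 in edgeR), and the sign turned without shNC replicate 2 (log2 fold change 0.0093) or sh812 replicate 1 (0.054). An antisense gene, AC135279.3, covers 702 bases of TBK1 exons and had 0 counts in both shNC libraries and 2 and 6 counts in sh812.

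IRF3, the transcription factor at the end of the relay, was the member that rose. It lies on chromosome 19 from 49659569 to 49665875 (ENSG00000126456, minus strand). IRF3 had 2279 and 2291 counts in shNC and 2836 and 2774 in sh812, or 60.1 and 72.4 CPM against 80.8 and 77.5 CPM. Both sh812 libraries were above both shNC libraries, and the shNC libraries differed from each other by more than the nearest pair across the groups. The fold was 1.20 with a 95% interval from 1.07 to 1.34 (log2 fold change 0.26, SE 0.079, adjusted p = 0.035 in edgeR). The call depended on shNC replicate 1. Without that library the log2 fold change was 0.13 (adjusted p = 0.30), and without shNC replicate 2 it was 0.40 (adjusted p = 2.24e-06). It was also lost without sh812 replicate 1 (0.23, adjusted p = 0.27) and without sh812 replicate 2 (0.29, adjusted p = 0.11), where the count of called genes over the table fell to 587 and 682. The call was lost as well with library size alone (0.21, adjusted p = 0.082) and with DESeq2 (0.26, adjusted p = 0.056).

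IRF3 shares 734 bases, 19.4% of its exon length, with BCL2L12, a gene of the BCL2 family on the opposite strand. BCL2L12 was at 68.9 and 74.97 CPM in shNC and at 87.1 and 90.6 CPM in sh812, and edgeR gave a log2 fold change of 0.31 with an adjusted p of 0.00559 (SE 0.070). Both genes were thus higher in sh812 by similar amounts. The libraries keep strand, but whether the counting used it is not given in the sources used here, and the part of shared reads in the IRF3 value was not tested. By distance between centred log2 CPM values over the 4 libraries, the genes most like IRF3 among 10838 were CAMKK1, DTYMK and NDUFAF8, at distances of 0.015, 0.018 and 0.020. Their log2 fold changes were 0.25, 0.25 and 0.24, of which that of DTYMK alone passed the test (adjusted p = 0.032 in edgeR, against 0.21 and 0.075). These genes were picked by likeness over the same 4 libraries, so their similar log2 fold changes follow from the choice and are a description only.

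**Figure D3:**
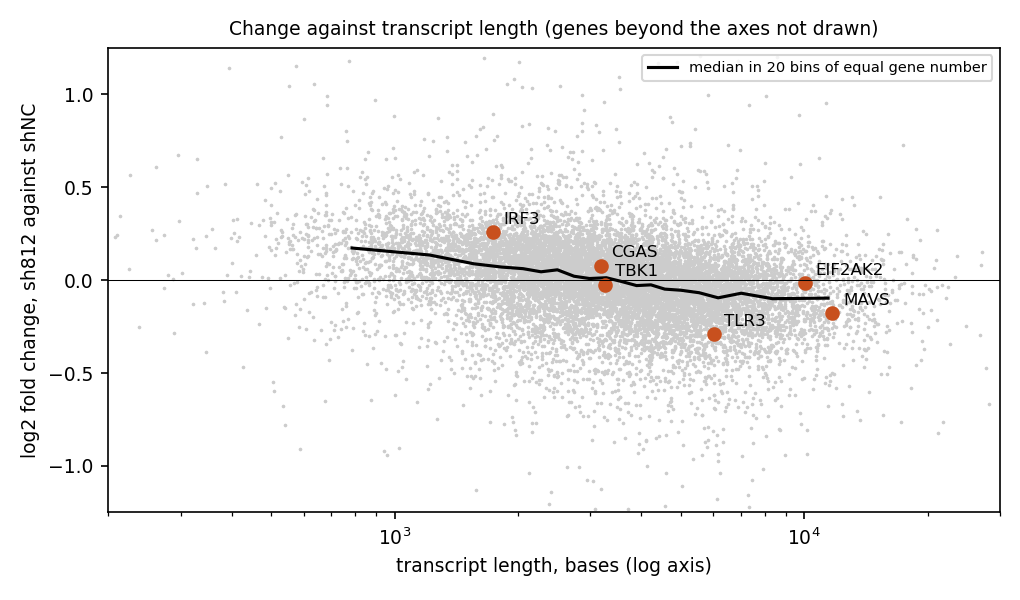
Log2 fold change of sh812 against shNC against the length of the longest coding transcript (log axis) for genes with a mean of at least 2 CPM (grey), with the median in 20 bins (line) and the 6 tested sensing genes (orange). The line falls from short to long transcripts; IRF3 (1741 bases) is on the shorter side of the length range and MAVS (11714 bases) near its long end.

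The members differ widely in transcript length, and the change between the groups varied with length. IRF3 has a transcript of 1741 bases, longer than those of 23.8% of tested genes, and MAVS one of 11714 bases, longer than those of 98.0%. EIF2AK2, at 10042 bases, and TLR3, at 6015 bases, are also long, and TBK1 (3256) and CGAS (3182) are near the median of 2975 bases. Over 12254 genes above a mean log2 CPM of 1, change and length had a Spearman correlation of -0.34 for sh812 against shNC. It was -0.33 between the shNC libraries (replicate 2 against 1) and 0.045 between the sh812 libraries (replicate 2 against 1). With each library's length trend removed, 0 of the 6 members were called by edgeR, and the log2 fold change of IRF3 was 0.20 (adjusted p = 0.068). In that fit all genes gave 1714 calls. In the fit that leaves the length trend in, 2 of the 6 members had an unadjusted p under 0.05, IRF3 and MAVS, against 24.8% of all tested genes (4161).

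The DNA letters GGACT, the strongest form of the m6A consensus, occur at 0.913 per kilobase in the median tested transcript. MAVS held 8 sites in its longest coding transcript (0.683 per kb), EIF2AK2 held 5 (0.498 per kb) and TLR3 held 4 (0.665 per kb). TBK1 and CGAS held 1 each, at 0.307 and 0.314 per kb. IRF3 held 3 sites, but at 1.72 per kb it was denser than 85.2% of tested transcripts, and DHX58 held 4 at 1.53 per kb. Whether these sites are methylated was not measured here.

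The rest of the pathway was read from 8 lists of 130 genes. Of these, 122 were tested, and 3 were called higher and 5 lower by edgeR, or 6.56% against 10.8% of all genes tested. The median log2 fold change over the lists was -0.011, close to that of all genes.

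**Figure D4:**
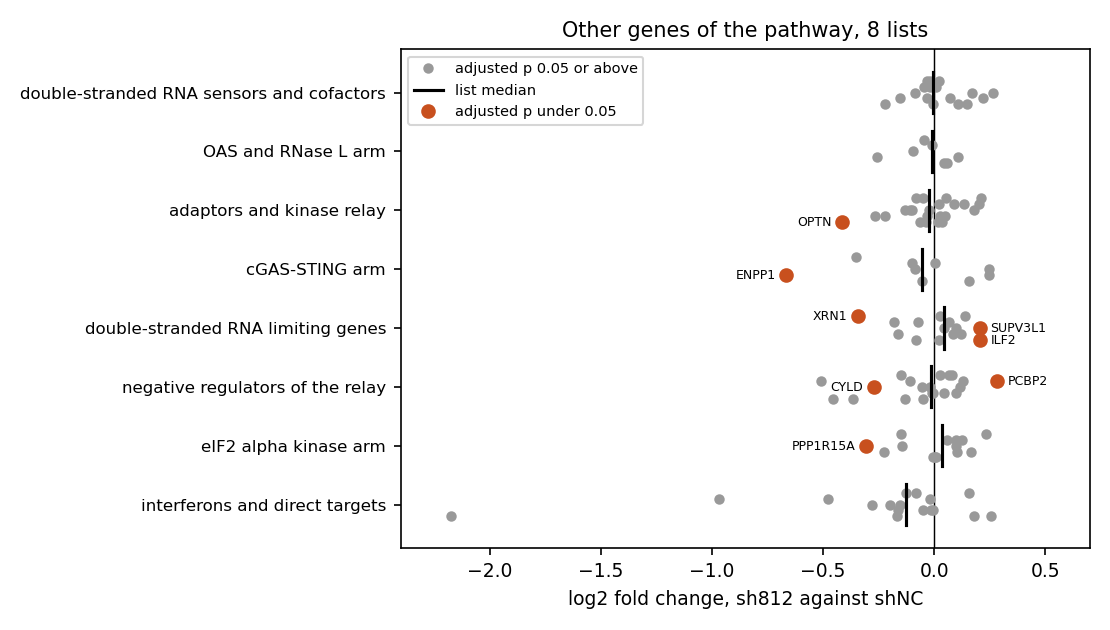
Log2 fold change of sh812 against shNC for each tested gene of the 8 pathway lists; orange points have an adjusted p under 0.05 and are named, and black bars are list medians. Most points lie near 0, 5 named genes lie to the left and 3 to the right; the far left point, at -2.17, is CXCL10, which missed the threshold.

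Of 17 tested RNA sensors and their cofactors, 0 were called by edgeR in either direction, with a median log2 fold change of -0.0029 (0.032 with the length trend removed). At an unadjusted p under 0.05, 3 were higher and 2 lower, against 24.8% of all tested genes. DESeq2 and limma-voom called 1 each, DHX9, and 3 were called higher with the length trend removed (DHX9, ZC3HAV1 and ZCCHC3). DDX58, which encodes RIG-I, was at 35.2 and 32.5 CPM in shNC and at 33.4 and 33.5 CPM in sh812. IFIH1, which encodes MDA5, was at 21.7 and 17.9 CPM in shNC and at 20.7 and 18.4 CPM in sh812. Both sensors overlapped between the groups, with folds of 0.986 (95% interval 0.870 to 1.12) and 0.987 (0.838 to 1.16). DHX9, a helicase that unwinds RNA duplexes, was at 304 and 310 CPM in shNC and at 354 and 339 CPM in sh812, with a log2 fold change of 0.17 (adjusted p = 0.053 in edgeR, 0.031 in DESeq2). It was 0.22 with the length trend removed (adjusted p = 0.0081). DDX58, IFIH1 and DHX9 were picked after their values were seen. Of the 7 genes of the OAS and RNase L arm, which cuts RNA once OAS enzymes bind duplexes, 0 were called by edgeR, DESeq2 or limma-voom, and 0 had an unadjusted p under 0.05.

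Of 23 adaptors and relay kinases, 1 was called, and it was lower. OPTN, a ubiquitin-binding autophagy receptor that interacts with TBK1, was at 53.1 and 52.4 CPM in shNC and at 37.9 and 41.2 CPM in sh812. Its log2 fold change was -0.41 (SE 0.080, adjusted p = 0.00136 in edgeR), and -0.35 without sh812 replicate 1 (adjusted p = 0.068). The adaptors next to the members were picked after their values were seen: TICAM1, the TLR3 adaptor, and STING1, the CGAS adaptor, had folds of 1.04 (95% interval 0.925 to 1.16) and 1.10 (0.917 to 1.31). Neither was called by edgeR (adjusted p = 0.76 and 0.57). IKBKE, the kinase most like TBK1, had a fold of 1.01 (0.906 to 1.13, adjusted p = 0.92 in edgeR).

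In the cGAS-STING arm, 1 of 9 tested genes was called. ENPP1, the ectoenzyme that hydrolyses cGAMP, the messenger made by CGAS, fell from 20.9 and 18.8 CPM to 12.5 and 12.6 CPM. Its log2 fold change was -0.67 (SE 0.11, adjusted p = 0.000401 in edgeR). It was called under each of the 14 alternatives, from -0.73 to -0.57, and was the largest of the 8 called changes in these lists.

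Genes that limit or remove RNA duplexes gave 2 calls upward and 1 downward among 15. ILF2, a nuclear RNA-binding protein, rose from 572 and 578 CPM to 678 and 649 CPM (log2 fold change 0.21, adjusted p = 0.0175 in edgeR). SUPV3L1, the mitochondrial RNA helicase that works with PNPT1 in degrading mitochondrial duplexes, rose from 141 and 138 CPM to 164 and 157 CPM (log2 fold change 0.20, adjusted p = 0.030 in edgeR). The call of each was lost without sh812 replicate 1 (adjusted p = 0.36 and 0.39) or sh812 replicate 2 (0.14 and 0.17), and that of SUPV3L1 with library size alone (0.087). XRN1, the cytoplasmic exonuclease of decapped RNA, was at 39.1 and 29.3 CPM in shNC and at 27.5 and 26.6 CPM in sh812. It was called lower (log2 fold change -0.34, adjusted p = 0.040 in edgeR), but without shNC replicate 1 the value was -0.12 (adjusted p = 0.59). It was also lost without sh812 replicate 1 (adjusted p = 0.11) or 2 (0.18), in DESeq2 (0.079) and with the length trend removed (0.11). ADAR, the enzyme that edits duplex RNA, was at 385 and 367 CPM in shNC and at 368 and 343 CPM in sh812, with a fold of 0.944 (95% interval 0.868 to 1.03, adjusted p = 0.42 in edgeR). ADAR was picked after its values were seen.

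Negative regulators of the relay gave 1 call in each direction among 20. PCBP2, which promotes the degradation of MAVS, rose from 129 and 143 CPM to 165 and 167 CPM (log2 fold change 0.28, adjusted p = 0.0046 in edgeR). MAP3K12 on the opposite strand covers 18.9% of the PCBP2 exon length in the annotation, and AC023509.1 on the same strand covers 13.8%. The part of shared reads in the PCBP2 value was not tested. CYLD, a deubiquitinase that acts on RIG-I and TBK1 among other targets, fell from 43.0 and 40.8 CPM to 34.5 and 34.9 CPM (log2 fold change -0.27, adjusted p = 0.036 in edgeR). The PCBP2 call was lost without sh812 replicate 1 or 2 (adjusted p = 0.061 and 0.088). The CYLD call was lost without shNC replicate 1 or either sh812 library (adjusted p from 0.11 to 0.28), in DESeq2 (0.054) and with the length trend removed (0.16).

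In the eIF2 alpha kinase arm, into which EIF2AK2 feeds, 1 of 14 genes was called. PPP1R15A (GADD34), the phosphatase subunit that reverses eIF2 alpha phosphorylation, fell from 111 and 97.6 CPM to 87.4 and 81.1 CPM (log2 fold change -0.31, adjusted p = 0.0067 in edgeR). It was -0.26 without sh812 replicate 2 (adjusted p = 0.16). The substrate gene EIF2S1 and the effector ATF4, picked after their values were seen, had folds of 1.07 (95% interval 0.992 to 1.16) and 0.997 (0.916 to 1.08). Neither was called by edgeR (adjusted p = 0.26 and 0.98).

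At the output of the pathway, interferon transcripts were at or near the floor of 3 counts. IFNB1, the direct target of IRF3, had 2 and 1 counts in shNC and 2 and 0 counts in sh812, and IFNL2 and IFNL3 had 0 counts in every library. IFNL1 had 0 and 4 counts in shNC and 2 and 0 counts in sh812. Of 17 interferon receptors, signalling genes and targets that were tested, 0 were called by edgeR, with 14 lower and 3 higher. The median log2 fold change was -0.13, and it was -0.043 with the length trend removed and -0.17 with library size alone. Over all tested genes these medians were -0.0056, 0.0058 and -0.050. At an unadjusted p under 0.05, 4 were lower and 2 higher, against 24.8% of all tested genes. The 2 higher ones were the interferon targets ISG15 and ISG20. ISG15 was at 187 and 184 CPM in shNC and at 225 and 188 CPM in sh812. ISG20 was at 29.7 and 38.0 CPM in shNC and at 40.3 and 40.4 CPM in sh812. Neither was called by edgeR (adjusted p = 0.16 and 0.095). DESeq2 called 0 and limma-voom called 1, MX1. MX1, an antiviral GTPase, was at 50.1 and 51.1 CPM in shNC and at 47.9 and 35.6 CPM in sh812 (adjusted p = 0.072 in edgeR, 0.048 in limma-voom). Other edgeR settings called MX1 lower: library size alone and a mean CPM of at least 1 (adjusted p = 0.045 each). So did no low-count filter (0.023) and the replicate block (0.029). MX1 was not called with RLE or upper quartile factors, DESeq2 or the length trend removed, alone or with GC. IFIT1, an interferon-induced RNA-binding protein gene, was at 33.6 and 30.7 CPM against 33.6 and 30.5 CPM. CXCL10, a chemokine gene, had 32 and 14 counts in shNC and 4 and 6 in sh812. Its log2 fold change of -2.17 (SE 0.72) missed the threshold (adjusted p = 0.051 in edgeR) and passed it with the length trend removed (-2.28, adjusted p = 0.042). In edgeR it also passed with GC removed as well (adjusted p = 0.044), library size alone (0.049) and no low-count filter (0.043). IFNB1, IFNL1, IFNL2, IFNL3, ISG15, ISG20, MX1, IFIT1 and CXCL10 were picked after their values were seen. Levels of TREX1, at 0 counts in every library, and IRF9, at 5 to 22 counts, are uncertain, since other genes on the same strand cover 100% and 48.4% of their exon length in the annotation. The same holds for IFNAR2 (44.2%), IL10RB (38.1%) and RNASEH2A (30.8%), which were near or below 1 CPM. IRF9, IFNAR2 and IL10RB are among the 17 interferon pathway genes tested, IFNAR2 among the 3 higher ones.

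Genes that share the ISRE core with EIF2AK2 and TLR3 were called about as often as all tested genes with a promoter entry, a set that includes them. Of 463 tested genes with the core in their promoter, 59 (12.7%) were called, 28 higher and 31 lower. Of all 11360 tested genes with a promoter entry, 1392 (12.3%) were called. The medians were -0.018 and -0.0088 on the log2 scale.

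**Figure D5:**
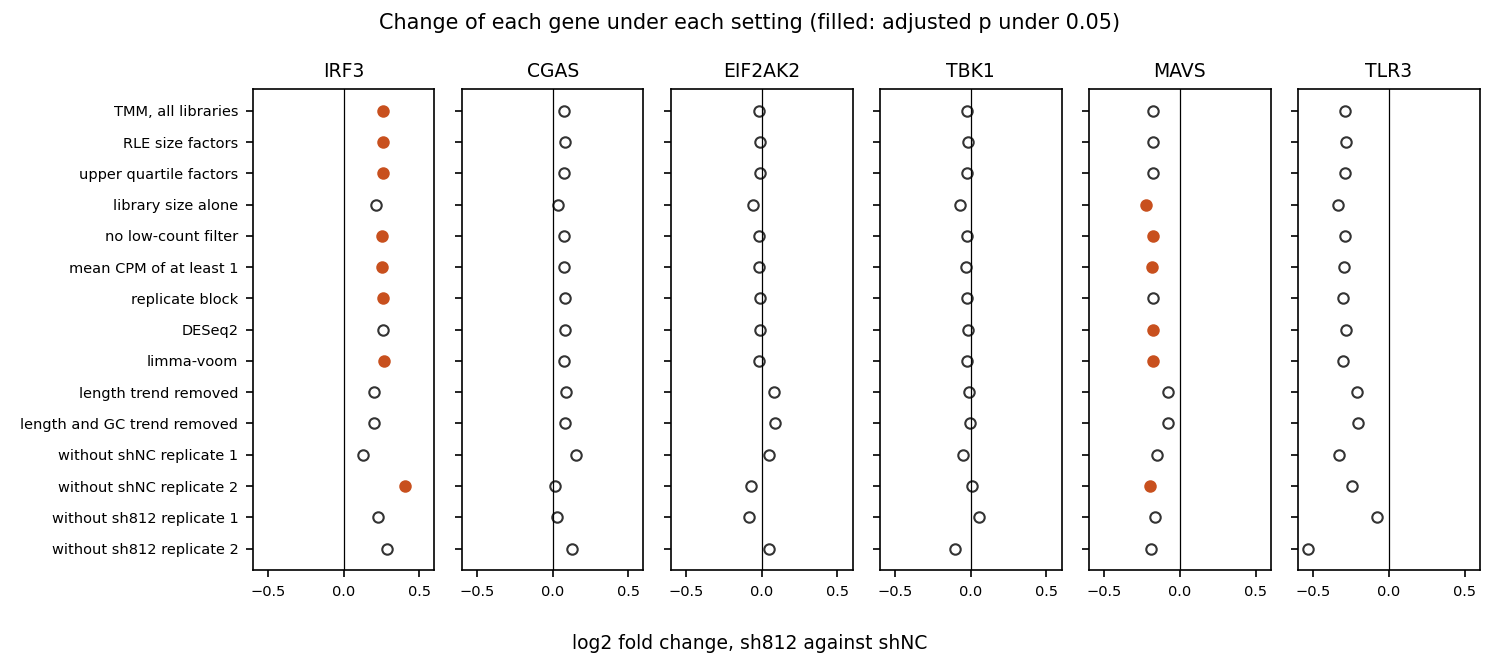
Log2 fold change of each of the 6 tested genes (1 panel each) under each setting of the analysis (rows), with filled points where the adjusted p is under 0.05. IRF3 is above 0 and MAVS below 0 under every setting drawn, each filled in some settings only; EIF2AK2 and TBK1 lie on both sides of 0, and no point of CGAS, EIF2AK2, TBK1 or TLR3 is filled.

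Across the settings drawn in the plot by setting, IRF3 ran from 0.13 to 0.40 and MAVS from -0.22 to -0.079 on the log2 scale. CGAS ran from 0.015 to 0.15 and TLR3 from -0.54 to -0.079, each with 1 sign. EIF2AK2 ran from -0.083 to 0.087 and TBK1 from -0.11 to 0.054. The adjusted p of CGAS, EIF2AK2, TBK1 and TLR3 was at least 0.38 in each of these settings.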

How the data were processed

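Poly(A) RNA libraries of PC3 cells were sequenced as paired reads on an Illumina NovaSeq, per the labels. The deposited values are raw counts per gene that the authors did not normalize, as their whole numbers and differing totals show. STAR 2.7.1a, fastp, featureCounts and DESeq2 and the build hg38 are named, per the submitters' processing notes, without roles. The annotation, the strand setting and read or pair counting are not given in the sources used here.

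The test was edgeR 4.0.16, run in R 4.3.3 (low-count filter filterByExpr, TMM, glmQLFit, glmQLFTest, prior count 0.125, 4 libraries, no covariate), with Benjamini-Hochberg adjustment over 16802 genes. The threshold for a call was 0.05. SE and 95% intervals derive from the quasi-likelihood F. CPM used TMM library sizes, and exon lengths came from GENCODE 29, matched by identifier. Its positions are not the authors'. Alternatives were RLE, upper quartile or no scaling factors, other filters, DESeq2 1.42.0, limma-voom (limma 3.58.1), a replicate block, each library left out, a prior count of 2, and lowess trends on transcript length and GC (span 0.3).

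The members and lists were chosen with earlier results of these data known. Named from the lists are up to 3 called genes per direction with the smallest p, and some list genes are not reported here. Same-numbered libraries had a deviation correlation of 0.0164 and were not treated as pairs. Replicates differed beyond sampling noise (chi-square per gene 8.43 and 4.51). On simulated data (16419 genes, 200 changed), the share called was 98% at a change of log2 1 and 84% at log2 0.5, and 7 of 189 calls were false. The changed genes were not drawn from low counts, and the noise was independent between genes, without the length trend of the real libraries. These shares therefore do not apply to low counts or to changes as small as those of the members.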

Additional observations from a re-analysis of the deposited data

How the results depend on the processing

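The number of members called was 1 with TMM and all libraries. It was 2 without a low-count filter, with a mean CPM of at least 1 and with limma-voom, where MAVS joined IRF3, and 0 with the length trend removed, alone or with GC. With library size alone and with DESeq2 it was 1, which was MAVS and not IRF3. Leaving out 1 library gave 0 to 2 members called and 587 to 3252 genes called against 1822, the lowest without sh812 replicate 1 and the highest without shNC replicate 2. These fits leave a group with 1 library, which is assumed to vary like the other group. METTL3 was called in each of its 14 alternatives, from -2.52 to -2.33. The sign of EIF2AK2 (-0.015) turned with the length trend removed (0.082) or with GC as well (0.087), and ran from -0.083 to 0.049 with a library left out. TBK1 (-0.024) ran from -0.11 to 0.054 with a library left out. For each of these, the cause was not tested.

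Both arms carry replicates 1 and 2 in their titles, without a shared day or batch. With the replicate block, 2001 genes and 1 member were called, IRF3 at 0.26, and METTL3 was at -2.42. The block changed no call of a member. The labels name no batch, so one aligned with the arms cannot be told apart from the knockdown. With 2 libraries per arm, TLR3 and smaller changes are measured with wide intervals, and DHX58 is below what this depth resolves.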
